A study of Mus musculus with 6 samples.

Results

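The genes described here encode 10 surface receptors of megakaryocytes and platelets, chosen by name: Gp1ba, Gp1bb, Gp5, Gp9, Itga2b, Itgb3, Gp6, Clec1b, Selp and Treml1. They were chosen with earlier results of these data known, so their counts beside those of all genes are a description. Of the 10 genes, 9 were analysed among the 20097 genes listed, and 8 had enough reads to be tested among 15410. RNA was measured by poly-A sequencing in mouse c-Kit+ bone marrow cells, which are rich in blood stem and progenitor cells, in 3 libraries of the genotype WT and 3 of the genotype Runx1 KO. The labels do not give the strain, age or sex of the mice, the allele of Runx1, how or when it was disrupted, or whether a library came from 1 animal or a pool. As nothing says that the libraries came from separate animals, p-values measure the spread between these libraries, which may be technical.

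Platelets are shed by megakaryocytes, and they stop bleeding by sticking to damaged vessel walls and to each other. The GPIb-IX-V complex tethers them to von Willebrand factor, GPVI binds collagen, and the integrin alphaIIb beta3 binds fibrinogen and bridges platelets. RUNX1 is a transcription factor of blood formation, and inherited variants that impair it cause a familial disorder with low platelet numbers and a risk of leukaemia. Several of these receptor genes are switched on before a megakaryocyte matures, and Itga2b is also transcribed in early blood progenitors.

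Each library held between 23297526 and 26793380 recovered reads, and values are given as normalised read counts, in which 1 read is worth between 0.959 and 1.05 units. Kit, which encodes the receptor used for the selection, was abundant in every library, at 7979 to 8471 under the label WT and 11507 to 13684 under the label Runx1 KO. Runx1 itself was not lower but higher in the libraries labelled Runx1 KO, at 6648, 6720 and 5830 against 3031, 2799 and 3497, a log2 change of 1.04 (SE 0.10, limma adjusted p 0.00163). This level per gene goes against the label and does not show whether a part of the transcript was missing, so groups are called by their labels, and a rise or fall means higher or lower under the label Runx1 KO.

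The 9 members with a RefSeq promoter entry, all except Itgb3, were searched in the 250 bases before the transcription start on both strands for 3 short motifs. The motif TGNGGT stands for the site read by RUNX factors, the motif GATAA for that of GATA factors, and the motif GGAAG for that of ETS factors. The sequences of 5 members are shown, 4 from the genes whose RNA was higher in the libraries labelled Runx1 KO and 1 from Clec1b, which did not pass the test, so that the letters can be set beside the values. They are from RefSeq on GRCm38.p6, written 5′ to 3′ in the direction of transcription, and capitals mark every match to any of the 3 motifs.
Gp1ba, chr11:70638872-70639121, plus strand: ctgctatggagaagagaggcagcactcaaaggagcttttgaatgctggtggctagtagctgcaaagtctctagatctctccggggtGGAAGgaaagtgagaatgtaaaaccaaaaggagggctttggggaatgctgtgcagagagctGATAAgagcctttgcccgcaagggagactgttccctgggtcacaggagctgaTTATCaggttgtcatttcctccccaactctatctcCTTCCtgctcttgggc
Gp5, chr16:30310782-30311031, minus strand: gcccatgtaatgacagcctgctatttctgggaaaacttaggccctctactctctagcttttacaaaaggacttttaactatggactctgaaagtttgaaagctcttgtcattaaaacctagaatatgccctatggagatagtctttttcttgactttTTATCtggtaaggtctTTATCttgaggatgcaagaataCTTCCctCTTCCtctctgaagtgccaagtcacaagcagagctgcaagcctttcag
Gp9, chr6:87777820-87778069, plus strand: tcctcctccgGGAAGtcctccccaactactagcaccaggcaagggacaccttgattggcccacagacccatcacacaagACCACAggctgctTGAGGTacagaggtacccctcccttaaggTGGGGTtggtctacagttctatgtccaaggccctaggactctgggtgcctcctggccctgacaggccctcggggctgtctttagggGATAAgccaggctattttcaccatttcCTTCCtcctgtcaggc
Treml1, chr17:48359666-48359915, plus strand: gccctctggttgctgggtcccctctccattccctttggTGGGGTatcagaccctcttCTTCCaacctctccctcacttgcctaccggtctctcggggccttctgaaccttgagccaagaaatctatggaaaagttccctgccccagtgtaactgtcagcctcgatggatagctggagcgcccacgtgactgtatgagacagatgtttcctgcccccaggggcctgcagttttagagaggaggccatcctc
Clec1b, chr6:129397047-129397296, plus strand: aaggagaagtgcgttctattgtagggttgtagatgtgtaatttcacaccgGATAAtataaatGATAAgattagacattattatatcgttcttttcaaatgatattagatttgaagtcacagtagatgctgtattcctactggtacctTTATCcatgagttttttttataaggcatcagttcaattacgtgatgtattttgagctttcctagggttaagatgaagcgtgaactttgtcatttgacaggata

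GATAA was found in 5 of the 9 windows (55.6%), those of Gp1ba, Gp5, Gp9, Gp6 and Clec1b, against 22.6% of all 32851 promoter windows of that length. GGAAG was found in 7 of 9 (77.8%) against 64.1%, and Gp6 and Clec1b were the members without it. TGNGGT was found in 3 of 9 (33.3%) against 40.1%, with 3 matches in Gp9 and 1 each in Treml1 and Gp1bb. In Gp9 the 3 TGNGGT matches began 171, 158 and 129 bases before the start, and the GATAA match 43 bases before it. In GENCODE M21 the window of Itga2b overlaps an exon of Itga2b itself, and that of Gp1bb overlaps an exon of the gene Sept5. The matches do not overlap in the sequences shown, and a match describes letters and not a bound site. GATAA was present both in Gp5, among the larger rises, and in Clec1b, which did not pass.

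RNA of 6 of the 8 tested receptor genes was higher in the libraries labelled Runx1 KO, and 2 did not pass the test. All 8 log2 changes were above 0. The 6 were Treml1, Gp5, Selp, Gp1ba, Gp9 and Itga2b, with log2 changes from 0.76 to 2.31, while Itgb3 and Clec1b had log2 changes of 0.09 and 0.52. The threshold was a limma adjusted p under 0.05 over all genes tested, which 21.9% of genes passed, 10.6% upwards. In the same 6 genes every library labelled Runx1 KO lay above every library labelled WT, an arrangement seen upwards in 21.4% of genes. The median log2 change of the 8 genes was 1.01, beside -0.0042 for all genes tested. By edgeR and by DESeq2 on recovered reads 6 members were also higher and 0 lower. In either direction 21.2% and 25.4% of genes passed, with 1640 and 1789 of the 15410 genes higher. Leaving out Runx1 KO replicate 2 gave 4 genes past the threshold in place of 6.

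**Figure D1:**
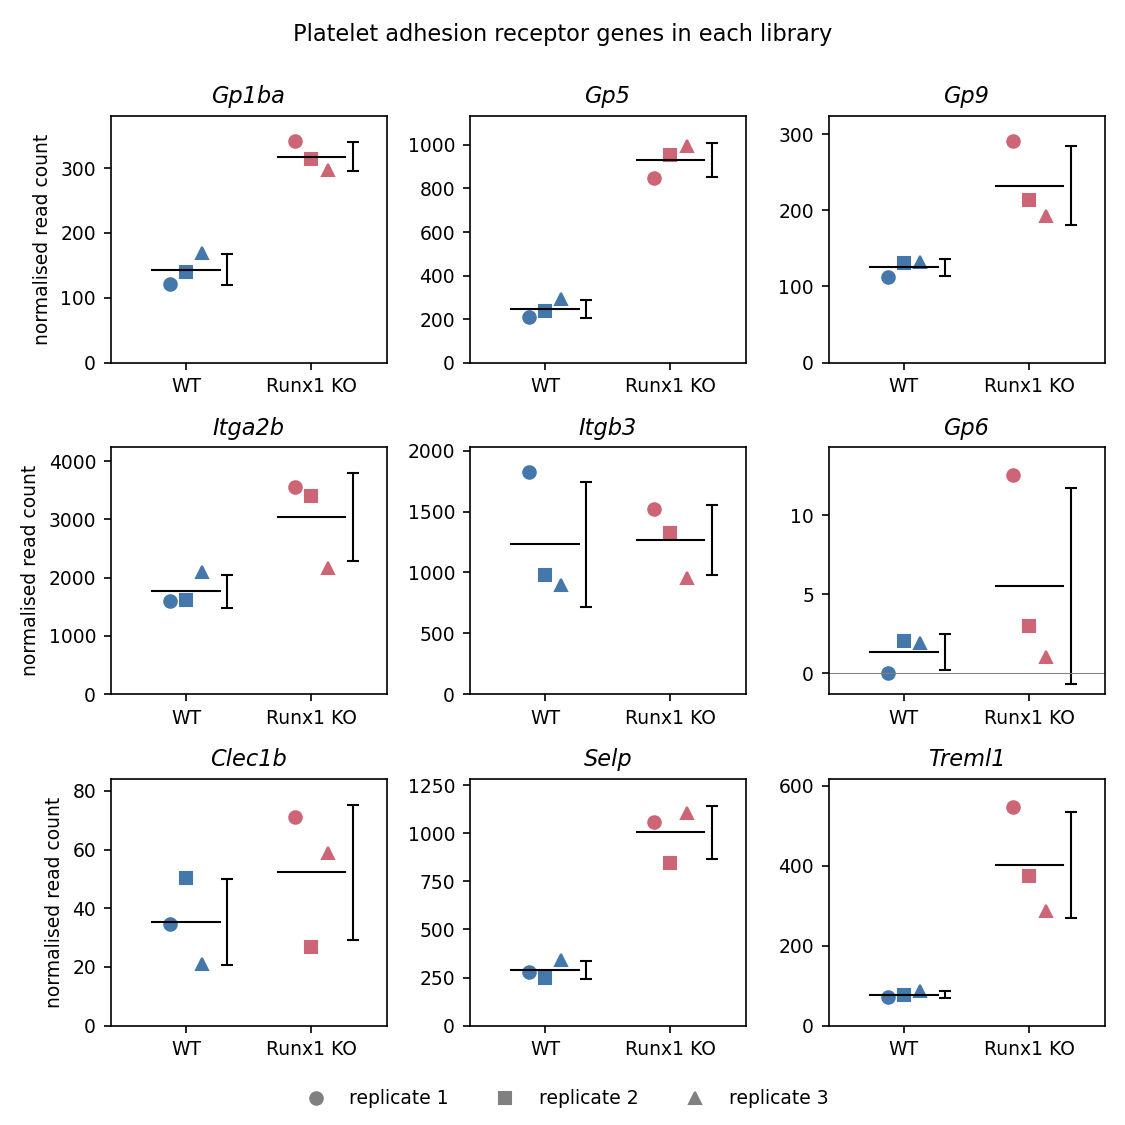
Normalised read counts (vertical axes, linear, each with its own scale) of the 9 analysed receptor genes in the 3 libraries labelled WT (blue) and the 3 labelled Runx1 KO (red); symbols mark replicates, horizontal lines group means and error bars SD. The groups are apart for Gp1ba, Gp5, Gp9, Itga2b, Selp and Treml1, and they overlap for Itgb3, Gp6 and Clec1b.

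The von Willebrand factor receptor was described by 3 of its 4 genes. Gp1ba (ENSMUSG00000050675; GRCm38 chromosome 11, 70639122 to 70642036, plus strand) encodes the ligand-binding chain. It had 122, 140 and 169 normalised reads under the label WT and 341, 314 and 296 under the label Runx1 KO. The lowest library labelled Runx1 KO thus lay well above the highest labelled WT. Means were 144 ± 23.7 and 317 ± 22.5 (SD, n = 3), and the log2 change was 1.15 (SE 0.15, limma adjusted p 0.00397).

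Gp5 (ENSMUSG00000047953; chromosome 16, 30307685 to 30310779, minus strand) encodes the chain that thrombin cleaves, which is not required for the rest of the complex to reach the surface. Its values were 210, 238 and 291 under the label WT and 846, 953 and 996 under the label Runx1 KO. The groups were far apart and each was narrow, with means of 246 ± 41.1 and 932 ± 77.0 (SD, n = 3). The second mean was 3.78 times the first, and the log2 change was 1.93 (SE 0.14, limma adjusted p 8.97e-04).

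Gp9 (ENSMUSG00000030054; chromosome 6, 87778072 to 87779768, plus strand) encodes the small subunit without which the complex is not displayed. It stood at 113, 130 and 132 against 291, 213 and 193. All 3 libraries labelled Runx1 KO were higher, with replicate 1 standing above the other 2. The log2 change was 0.87 (SE 0.18, limma adjusted p 0.0177). Leaving out Runx1 KO replicate 2 gave a change of 0.92 and a limma adjusted p of 0.0575, while the other limma settings gave values from 0.0134 to 0.0462.

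Gp1bb (ENSMUSG00000050761; chromosome 16, 18620317 to 18622403, minus strand), the chain that links the ligand-binding subunit to the others, was not among the genes listed, so it was not analysed here. In GENCODE M21, 91.1% of its exon bases also lie within exons of Sept5, a neighbouring septin gene on the same strand. Exons of Gm49601, another protein-coding gene on that strand, share 41.5% of them. How reads from such shared bases were assigned is not given in the sources used here. Sept5, named after its values were seen, had 466, 481 and 361 normalised reads under the label WT and 72.2, 36.7 and 19.9 under the label Runx1 KO. It fell by 3.49 on the log2 scale (SE 0.42, limma adjusted p 0.00328), a direction opposite to that of the 3 measured genes of the complex.

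The levels of the 3 measured genes of the complex were also compared with each other. Within each library, the level of Gp5 per kilobase of exon was 2.13, 2.10 and 2.13 times that of Gp1ba under the label WT. Under the label Runx1 KO the same ratio was 3.07, 3.75 and 4.16, with no overlap. The ratio of Gp5 to Gp9 likewise went from 0.787 ± 0.0815 to 1.68 ± 0.462 (SD, n = 3) without overlap. The ratio of Gp1ba to Gp9, at 0.371 ± 0.0369 and 0.452 ± 0.0630, overlapped between the groups. These ratios do not depend on how libraries were scaled. With 3 libraries against 3, the smallest two-sided p of an exact permutation test is 0.1, and the ratios were not tested.

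**Figure D2:**
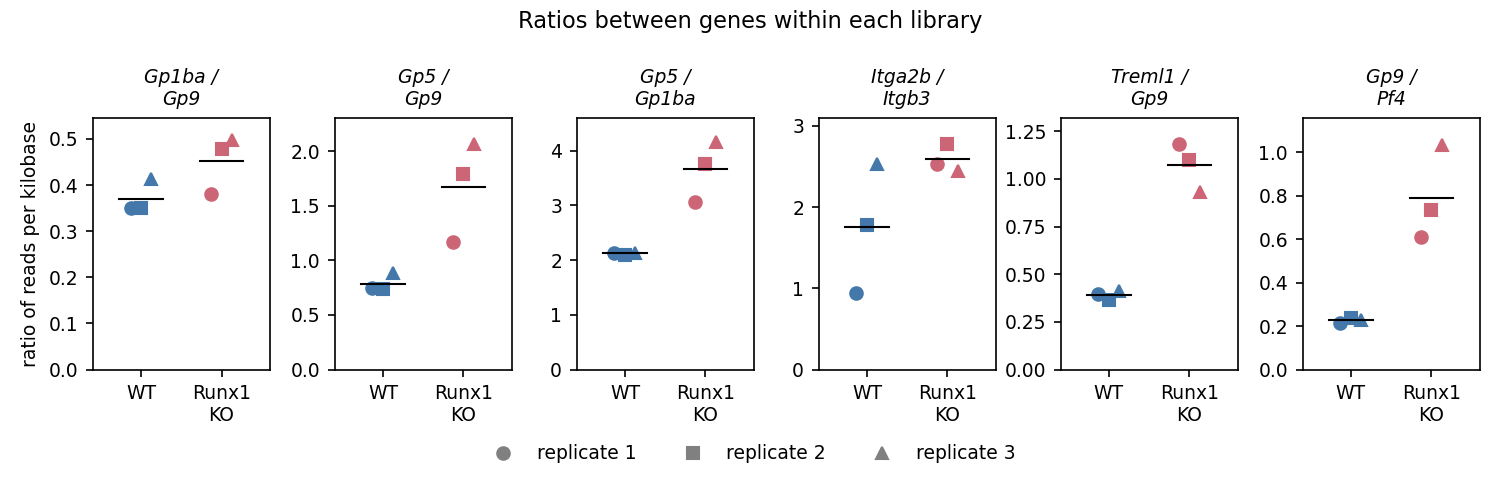
Ratios of normalised reads per kilobase between pairs of genes (vertical axes, linear from 0) in each library labelled WT (blue) or Runx1 KO (red), with group means as lines and symbols for replicates. Gp5 over Gp1ba lies near 2.1 in the libraries labelled WT and between 3.07 and 4.16 in those labelled Runx1 KO, whereas Gp1ba over Gp9 and Itga2b over Itgb3 overlap.

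Of the 2 chains of the fibrinogen receptor, Itga2b passed the test and Itgb3 did not. Their ratio per kilobase, Itga2b over Itgb3, overlapped between the groups. It was 0.946, 1.78 and 2.53 under the label WT and 2.54, 2.78 and 2.45 under the label Runx1 KO. Whether the 2 chains changed by different amounts was not tested. Itga2b (ENSMUSG00000034664; chromosome 11, 102453297 to 102470122, minus strand) encodes alphaIIb, also called CD41, the chain particular to megakaryocytes and early progenitors. Its values were 1592, 1614 and 2092 under the label WT and 3561, 3397 and 2165 under the label Runx1 KO. The groups did not overlap, but WT replicate 3 and Runx1 KO replicate 3 nearly met. The log2 change was 0.76 (SE 0.20, limma adjusted p 0.0378). The limma adjusted p was 0.0926 without WT replicate 1, 0.109 without WT replicate 2, 0.077 without Runx1 KO replicate 1 and 0.129 without Runx1 KO replicate 2, and it was 0.0124 without Runx1 KO replicate 3.

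Itgb3 (ENSMUSG00000020689; chromosome 11, 104608000 to 104670476, plus strand) encodes beta3, which also pairs with the alphaV chain in macrophages and other cells. It had 1821, 981 and 894 normalised reads under the label WT and 1519, 1323 and 957 under the label Runx1 KO. The groups overlapped throughout, and the highest value of the 6 belonged to WT replicate 1. The log2 change was 0.09 (SE 0.29, limma adjusted p 0.848). It was 0.41 without WT replicate 1 (limma adjusted p 0.189) and below 0 in 3 fits that left out another library.

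WT replicate 1 also stood apart in Thbs1, which encodes thrombospondin-1 and was named after its values were seen. Thbs1 had 18629 normalised reads there, against 1962 and 2213 in the other libraries labelled WT. The summed level of the 10 monocyte and macrophage markers was 73120 in WT replicate 1, against 53030 and 60571, and 31558 to 52288 under the label Runx1 KO. Of these markers 4 of 10 fell and 0 were at 0. B-lymphoid markers stood further apart there, with a sum of 26929 against 6614 and 10760 in the other libraries labelled WT. Sums of neutrophil and of mast cell and basophil markers were also highest there among libraries labelled WT, while those of erythroid, stem and endothelial markers were not. The part of any of these cells in the level of Itgb3 was not tested. Itgav, the other partner of beta3, had a log2 change of -0.10 (SE 0.09, limma adjusted p 0.425).

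In the ITAM-linked receptors, which signal through tyrosine motifs and the kinase SYK, the data were sparse. Clec1b (ENSMUSG00000030159; chromosome 6, 129397297 to 129409335, plus strand) encodes the podoplanin receptor of platelets. Its values were 34.6, 50.5 and 21.1 under the label WT and 71.1, 26.8 and 58.7 under the label Runx1 KO. Those ranges overlapped, and the log2 change of 0.52 (SE 0.45, limma adjusted p 0.437) did not pass. In the annotation 3.61% of its exon bases are shared with the neighbouring Clec9a on the same strand.

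Gp6 (ENSMUSG00000078810; chromosome 7, 4363965 to 4397744, minus strand), the collagen receptor, was barely detected and was not tested. Its recovered reads were 0, 2 and 2 in the libraries labelled WT and 12, 3 and 1 in those labelled Runx1 KO. In 5 of the 6 libraries it lay at or under the floor of 3 reads, so a difference was not detectable at this depth. Fcer1g, named after its values were seen, encodes the signalling chain that GPVI shares with the Fc receptors of myeloid cells. It was abundant and fell, from 5351 ± 659 to 2189 ± 648 normalised reads (SD, n = 3), and its log2 change was -1.32 (SE 0.19, limma adjusted p 0.00582). Mast cells and basophils also use that chain. Of 7 tested markers of these cells 6 fell, and the summed level over 8 genes was 6598 to 9366 under the label WT and 2197 to 3770 under the label Runx1 KO. Mean marker sums were also lower under the label Runx1 KO for neutrophils (332933 to 159651) and for monocytes and macrophages (62240 to 38883). The part of any of these cells in the level of Fcer1g was not tested.

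The receptors of the alpha-granule membrane, which reach the surface when platelets are activated, had 2 of the 3 largest rises. Treml1 (ENSMUSG00000023993; chromosome 17, 48359916 to 48367176, plus strand) encodes TLT-1, a receptor of the megakaryocyte lineage that binds fibrinogen. It had 71.2, 75.7 and 86.3 normalised reads under the label WT and 547, 374 and 285 under the label Runx1 KO. Every library labelled Runx1 KO was more than 3 times the highest labelled WT, and the 3 differed among themselves. Means were 77.7 ± 7.76 and 402 ± 133 (SD, n = 3), a ratio of 5.17, and the log2 change was 2.31 (SE 0.24, limma adjusted p 0.00231). That rise ranked 68 among 15410 genes.

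Selp (ENSMUSG00000026580; chromosome 1, 164115264 to 164150026, plus strand) encodes P-selectin, which is also made by endothelium and by some blood stem cells. Its values were 278, 249 and 341 against 1058, 847 and 1107. The groups were widely separated, with means of 289 ± 46.7 and 1004 ± 138 (SD, n = 3), a ratio of 3.47. The log2 change was 1.79 (SE 0.15, limma adjusted p 0.00128). In the annotation 9.93% and 4.21% of its exon bases are shared with 2 non-coding genes on the opposite strand, and whether counting used the strand is not given in the sources used here.

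Some markers of endothelium and most of those of stem cells rose, where 10.6% of all genes tested passed upwards. Of 9 tested endothelial markers 5 rose, Tek, Robo4, Kdr, Egfl7 and Emcn, and 4 did not pass, and the summed level of the list of 10 was 1990 to 2717 under the label WT and 3467 to 3857 under the label Runx1 KO. Of the 4, Stab2, a scavenger receptor of sinusoidal endothelium, had a log2 change of -1.29 (SE 0.44, limma adjusted p 0.0769). Cdh5, the cadherin that defines endothelium, had 65.3, 63.6 and 43.2 normalised reads against 38.7, 22.8 and 34.8 (log2 change -0.83, SE 0.28, limma adjusted p 0.0765). Of 10 stem and multipotent markers 7 rose and 3 did not pass, with a summed level of 19494 to 22359 against 29351 to 32863. Their part in the rise of Selp and Itga2b was not tested, and in bulk RNA a change in the number of cells of a type and a change in RNA per cell cannot be told apart.

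**Figure D3:**
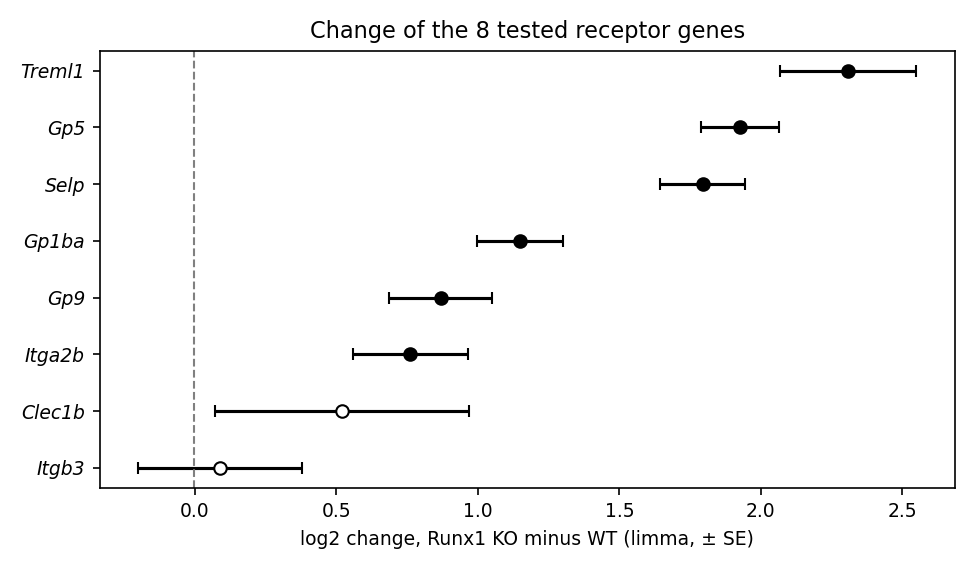
Log2 change of the 8 tested receptor genes, Runx1 KO minus WT (horizontal axis, limma on log2 of the normalised read count plus 1), with bars for 1 SE. Filled points passed an adjusted p of 0.05, and the dashed line is the median of all tested genes; Treml1, Gp5 and Selp lie above 1.7, and Itgb3 lies near 0.

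To compare levels between genes, values were divided by the length of exon annotated for each gene. Under the label WT, Itga2b led with 324 ± 51.8 normalised reads per kilobase (SD, n = 3), followed by Itgb3 (209 ± 86.8), Gp9 (142 ± 12.2), Gp5 (112 ± 18.7), Selp (65.5 ± 10.6), Treml1 (55.5 ± 5.53), Gp1ba (52.8 ± 8.74), Clec1b (6.94 ± 2.88) and Gp6 (0.222 ± 0.193). Neighbours whose libraries overlapped were Itga2b with Itgb3, Gp9 with Gp5, Selp with Treml1 and Treml1 with Gp1ba. Under the label Runx1 KO the order began with Itga2b (558 ± 140), Gp5 (424 ± 35.0), Treml1 (287 ± 95.0), Gp9 (264 ± 58.7), Selp (227 ± 31.2) and Itgb3 (215 ± 48.4), each overlapping the next. Gp1ba (117 ± 8.27), Clec1b (10.2 ± 4.49) and Gp6 (0.933 ± 1.05) kept the last 3 places. By group mean, Itgb3 took the second place under the label WT and the sixth under the label Runx1 KO.

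**Figure D4:**
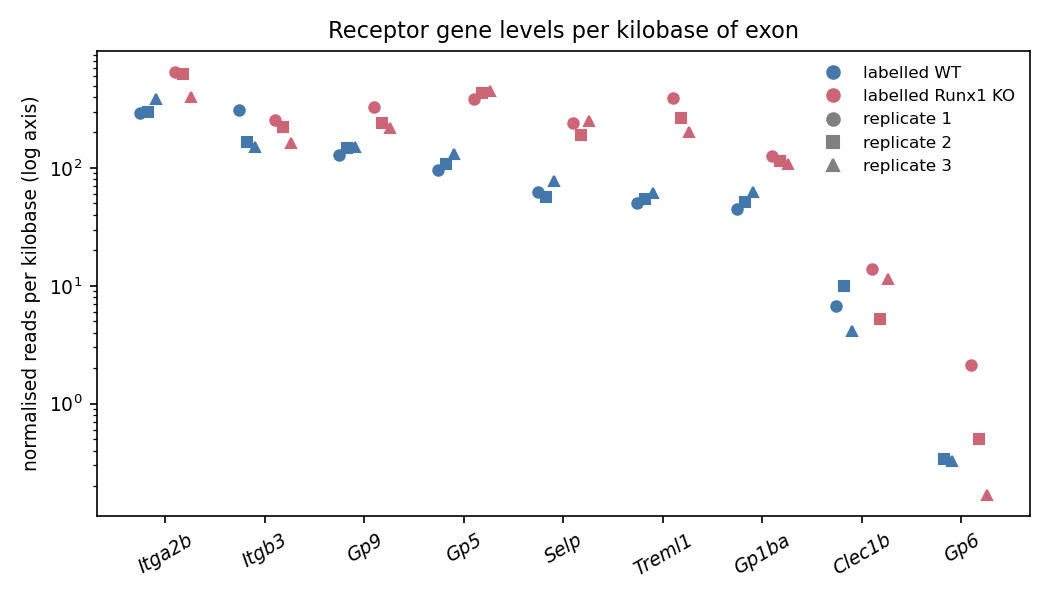
Level of each receptor gene in normalised reads per kilobase of exon (vertical axis, log scale) in each library labelled WT (blue) or Runx1 KO (red), with symbols for replicates and genes ordered by their mean under the label WT; a library with 0 reads is not drawn. By group mean, Itga2b is highest in both groups and Gp6 lowest, more than 2 powers of 10 below it. In WT replicate 1 Itgb3 lies above Itga2b, and in Runx1 KO replicate 3 Gp5 lies above it.

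The libraries labelled Runx1 KO differed from one another. Replicate 1 had the highest value of the 3 in 6 of the 8 tested members, and replicate 3 the lowest in 5, while Gp5 and Selp were highest in replicate 3. Relative to the mean of the libraries labelled WT, the median log2 difference of the 8 members was 1.23, 1.05 and 0.93 in replicates 1 to 3. Replicate 1 also had the highest neutrophil and B-lymphoid marker sums of that group, 194802 and 2594 against at most 146107 and 1038. Across the study 9 of 10 neutrophil markers and 6 of 8 B-lymphoid markers fell, with neutrophil sums of 292220 to 362077 and B-lymphoid sums of 6614 to 26929 under the label WT. Erythroid markers showed 2 falls among 10, both globins, and sums of 32148 to 47614 against 30461 to 52561. The part of these cells in the receptor values was not tested.

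The wider platelet programme was described with 5 gene lists, which together had 31 genes higher and 26 lower past the threshold; without Runx1 KO replicate 2 these were 19 and 14, and without Runx1 KO replicate 3 the lower genes were 16. The lists held 6, 24, 32, 22 and 20 tested genes, Runx1 among them. Over all genes tested 10.6% passed upwards and 11.3% downwards. Among 24 other platelet surface receptors, 9 rose and 4 fell, with a median log2 change of 0.19. Mpig6b, an inhibitory receptor of megakaryocytes, rose from a level near the floor (3.64 ± 1.59 to 16.9 ± 5.60 normalised reads, SD, n = 3, log2 change 1.96, SE 0.42, limma adjusted p 0.0187), and leaving out Runx1 KO replicate 3 gave a limma adjusted p of 0.070. Esam, a junctional adhesion molecule of platelets and endothelium, rose by a log2 change of 1.66 (SE 0.28). Pear1, a platelet contact receptor, rose by 1.50 (SE 0.19). Cd63, a tetraspanin of granules and lysosomes shared by many myeloid cells, fell by 1.46 on the log2 scale (SE 0.12). Limma adjusted p values of the last 3 were 0.00838, 0.00366 and 0.00128.

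Megakaryocyte granule and cytoplasmic genes were mixed, with 8 of 22 higher, 3 lower and a median log2 change of 0.39. By DESeq2, 6 were lower. Alox12, the platelet lipoxygenase, rose by 2.83 (SE 0.33), Tubb1, the platelet beta-tubulin, by 1.63 (SE 0.30), Ctla2a, a cathepsin inhibitor-like gene, by 1.51 (SE 0.20) and Gng11, a G protein subunit of platelets, by 1.16 (SE 0.14), all on the log2 scale with limma adjusted p values up to 0.0116. With 5 in place of 1 added to each value before the log2, the rises of Alox12 and Tubb1 were 2.56 and 1.40. Pf4, the platelet factor 4 gene and named after its values were seen, did not follow the receptors. It had 428, 448 and 477 normalised reads under the label WT and 391, 238 and 153 under the label Runx1 KO, so that the groups did not overlap and the direction was opposite. Its log2 change of -0.89 (SE 0.31) had a limma adjusted p of 0.0782, within a range of 0.00865, without Runx1 KO replicate 1, to 0.187, and the DESeq2 adjusted p was 0.0427. Ppbp, of the same list and also named after its values were seen, went the other way. Its log2 change was 1.42 (SE 0.47, limma adjusted p 0.0685, DESeq2 adjusted p 0.0239). Per kilobase, Gp9 stood at 0.227 ± 0.0112 of the level of Pf4 under the label WT and at 0.791 ± 0.217 under the label Runx1 KO (SD, n = 3), without overlap.

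Signalling genes downstream of the receptors had a median log2 change of -0.27, with 2 of 32 higher and 13 lower. Without WT replicate 3 the lower genes were 8, and without Runx1 KO replicate 2 or 3 they were 7. Scaling by library totals gave 5 higher genes in place of 2, and leaving out WT replicate 2, WT replicate 3 or Runx1 KO replicate 2 gave 1. The filamin gene Flna, whose protein anchors GPIb to actin, fell from 48830 ± 5659 to 23466 ± 1936 normalised reads (SD, n = 3), and its log2 change was -1.05 (SE 0.10, limma adjusted p 0.00205). Vcl, which encodes vinculin of adhesion sites, fell by 0.81 on the log2 scale (SE 0.09, limma adjusted p 0.00275). Grap2, an adaptor of the GPVI pathway, fell by 1.38 (SE 0.33, limma adjusted p 0.0265). The call of Grap2 was lost in each fit that left out a library except that without Runx1 KO replicate 1, with a limma adjusted p up to 0.096. Lat, the membrane adaptor of the same pathway, rose by a log2 change of 0.98 (SE 0.18, limma adjusted p 0.0119). Many of these genes act in neutrophils and lymphocytes as well, whose marker sums were lower, and the part of those cells was not tested.

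Of 6 tested ligands and counter-receptors, 1 rose and 3 fell, with a median log2 change of -0.82. That median was set by Selplg and by Thbs1, which did not pass the test. The log2 change of Thbs1 was -1.15, and -0.0956 without WT replicate 1, so the median rests in part on that library. Of the list of 13, Fga, Fgb, Fgg, Vtn, Col3a1 and Pdpn were not among the genes listed, and Cd40lg was not tested. Vwf, the ligand of GPIb, rose from a level of 721 ± 14.8 to one of 1009 ± 176 (SD, n = 3), and its log2 change was 0.47 (SE 0.12, limma adjusted p 0.0356). Its call was lost without any one of the 3 libraries labelled WT or without Runx1 KO replicate 2 (limma adjusted p 0.078 to 0.088). The collagen genes Col1a1 and Col1a2, ligands of GPVI made by stromal cells, fell by 2.85 (SE 0.68) and 1.58 (SE 0.33) on the log2 scale, at levels up to 175 normalised reads, with limma adjusted p values of 0.0271 and 0.0181. The level of 175 was that of Col1a1 in WT replicate 1, without which Col1a1 fell by 2.09. Selplg, the P-selectin ligand of leukocytes, fell by 0.50 (SE 0.13, limma adjusted p 0.0373), and by 0.42 with an adjusted p of 0.0546 under library totals. Without Runx1 KO replicate 2 or 3 these 3 genes had limma adjusted p values from 0.0534 to 0.129, with log2 changes still below 0. The call of Col1a2 was also lost without WT replicate 2 (limma adjusted p 0.0504), and that of Selplg without WT replicate 1 or 3 (0.0871 and 0.0854).

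Of 20 transcription factors of megakaryocytes, 11 were higher and 3 lower, with a median log2 change of 0.34, and without Runx1 KO replicate 2 the higher genes were 5. The list was chosen with earlier results on several of them known. By the naming rule these were, besides Runx1, Ets1, which fell by 2.35 on the log2 scale (SE 0.26, limma adjusted p 0.00279), Gfi1b, which rose by 1.11 (SE 0.23, limma adjusted p 0.0173) and Meis1, which rose by 1.01 (SE 0.23, limma adjusted p 0.0221). Gfi1b had a limma adjusted p of 0.056 when Runx1 KO replicate 2 was left out, and Meis1 one of 0.0547 to 0.0852 without that library, WT replicate 1 or WT replicate 2.

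**Figure D5:**
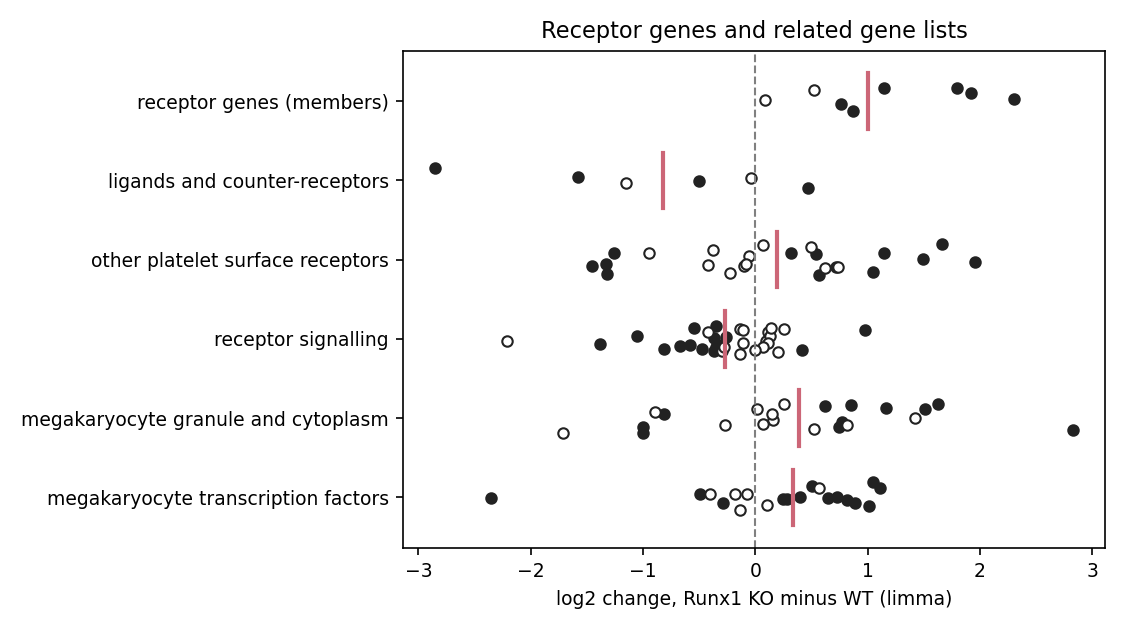
Log2 change, Runx1 KO minus WT (horizontal axis, limma), of each tested gene in the receptor list and 5 related lists (rows, points spread vertically for visibility). Filled points passed an adjusted p of 0.05, red bars are list medians and the dashed line is the median of all tested genes; the receptor list has a median of 1.01 and the signalling list one of -0.27.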

How the data were processed

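Poly-A RNA of c-Kit+ bone marrow cells was sequenced in 6 libraries, 3 per label. HISAT2 and HTSeq 0.9.1 are named with GRCm38 in the submitters' processing notes, and the normalisation is not given in the sources used here. The deposited values are a signal of read counts divided by 1 size factor per library: 100% were whole multiples of the smallest value (tolerance 0.001), and these multiples are the recovered reads. Listed genes had at least 10 reads in all.

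Symbols matched 20077 of 20097 identifiers, and positions are from GENCODE M21. Genes passing filterByExpr (minimum count 10, total 15) were tested with limma 3.58.1 (trend, group only, two-sided, Benjamini-Hochberg) on log2(value + 1), which understates the change of low genes. edgeR 4.0.16 and DESeq2 1.42.0, on recovered reads, were alternatives, and the fits were tested on simulated data. The floor of 3 reads covers counting error only. No set test was run. Members and lists were chosen with earlier results of these data known. Named were the members, Runx1, up to 4 called genes with the largest changes per list, and genes marked as named later.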

Additional observations from a re-analysis of the deposited data

How the results depend on the processing

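With all libraries kept, 8 other settings (edgeR with TMM, DESeq2, library totals or TMM in limma, pseudocounts of 0.5 and 5, no filter, and the replicate number as a block) gave 5 to 6 receptor genes higher and 0 lower. Of 64 values of single receptor genes under them, 63 stayed on their side of the threshold. The exception was Itga2b with the replicate block, at a limma adjusted p of 0.0527, so that the block gave 5 genes higher. Same-numbered libraries had correlations of their deviations from the group means of 0.287, 0.129 and -0.010. Differently numbered libraries had values from -0.285 to 0.235. These values do not settle whether the numbers pair the libraries, and the main fit used no block. With the block 1656 genes were higher and 2187 lower over all genes. Scaling by library totals moved the median log2 change of all genes to 0.078 and the share of calls that were higher from 48.4% to 63.5%. Leaving out 1 library in turn gave 4 to 6 receptor genes higher and 0 lower, 632 to 1634 genes higher and 735 to 1963 lower over all genes (1631 and 1739 with all libraries), and 19 to 29 list genes higher and 14 to 29 lower. Of 48 values of single receptor genes in those fits, 40 kept their side, 5 lost their call and 3 reversed. The reversals were of the log2 change of Itgb3, which was -0.037 without WT replicate 2, -0.104 without WT replicate 3 and -0.055 without Runx1 KO replicate 1, within a range up to 0.41 without WT replicate 1, and the cause was not tested. In the 200 bases before the start, TGNGGT was found in 1 member and not 3. At this depth Gp6, with at most 12 reads in a library, could not be compared.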
